A study of Mus musculus with 9 samples.

Results

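Liver expression of 9 genes that mark T and B lymphocytes by their receptors was followed through thioacetamide (TAA) fibrosis and its reversal. The members were taken by gene symbol from the table of 21873 genes: *Cd3d*, *Cd3e*, *Cd3g*, *Cd4*, *Cd8a* and *Cd8b1* for T cells, and *Ms4a1*, *Cd79a* and *Cd79b* for B cells. All 9 were listed once and all 9 reached the minimum required for testing, an average of 0.1 FPKM. FPKM are fragments per kilobase of gene per M (mega) mapped fragments.

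The mice were male C57BL/6 animals, 8 weeks old at the start, and each of the control, TAA and recovery groups held 3 of them. The control group (NS) received normal saline intraperitoneally for 8 weeks. The TAA group received TAA, a compound that injures hepatocytes, at 200 mg/kg every 3 days for 8 weeks, and livers of these groups were taken 72 h after the last injection. The recovery group (Re) received TAA for 8 weeks and was then left without injections for another 8 weeks. Its mice were therefore older at collection than the control and TAA mice. In the comparison with either group, age and recovery cannot be told apart. Whole liver RNA was sequenced, and no sorting of lymphocytes preceded it.

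The T cell receptor is carried to the surface by the CD3 chains, which pass its signal inward. CD4 marks helper T cells and binds MHC class II, whereas CD8, a dimer of the products of *Cd8a* and *Cd8b1*, marks cytotoxic T cells and binds MHC class I. The B cell receptor signals through the heterodimer of CD79A and CD79B, and CD20, the product of *Ms4a1*, lies beside it in the membrane of mature B cells. The liver holds resident T cells, NK cells and passing blood lymphocytes within its sinusoids, and inflamed portal tracts can gain lymphoid infiltrates.

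The T cell members lie in 2 short stretches of the mm10 genome. *Cd3g* (chr9:44969572-44980431, minus strand) and *Cd3d* (chr9:44981786-44987339, plus strand) point away from each other across a gap of 1354 bases, and *Cd3e* (chr9:44998740-45009627, minus strand) follows 11400 bases further on. *Cd8b1* (chr6:71322788-71337494) and *Cd8a* (chr6:71373427-71379173) stand on the plus strand with 35932 bases between them, and *Cd4* (chr6:124864692-124888221, minus strand) lies elsewhere on the same chromosome. The B cell members are scattered, with *Cd79a* at chr7:24897381-24902197 (plus strand), *Cd79b* at chr11:106311341-106314762 (minus strand) and *Ms4a1* at chr19:11249675-11266241 (minus strand). In the GENCODE M21 annotation, which gave the same loci, *Cd3e* overlaps Gm48720 on its own strand and Gm48719 on the other, and *Ms4a1* overlaps 4930526L06Rik on the other strand. Whether the counting used strand is not given in the sources used here, so the values of *Cd3e* and *Ms4a1* could hold fragments of these neighbours. The other 7 members overlap no annotated gene.

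RefSeq promoter entries (build GRCm38.p6) were found for 5 of the 9 members, *Cd3d*, *Cd3e*, *Cd3g*, *Cd8a* and *Cd79a*. Of the 250 bases before the RefSeq start, those that lie before the gene's locus in the deposited table are shown for *Cd8a*, which changed in the TAA group, for *Cd79a*, the B cell member with an entry, for *Cd3d*, whose control and TAA mice did not overlap, and for *Cd3e*, the T cell member with the highest level. They lie at chr6:71373177-71373426 (plus strand), chr7:24897247-24897380 (plus strand), chr9:44981536-44981785 (plus strand) and chr9:45009628-45009861 (minus strand), respectively. The RefSeq start lies inside that locus for *Cd79a*, by 116 bases, and for *Cd3e*, by 16 bases, and these bases are not shown. The sequences are written 5′ to 3′ with every whole match to AGGAAGT or CANNTG, on either strand, in capitals.
Cd8a: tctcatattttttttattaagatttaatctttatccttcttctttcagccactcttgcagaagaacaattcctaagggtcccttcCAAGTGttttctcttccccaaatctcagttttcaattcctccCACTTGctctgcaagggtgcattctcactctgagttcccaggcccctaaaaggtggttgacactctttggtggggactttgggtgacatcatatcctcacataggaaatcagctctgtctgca
Cd79a: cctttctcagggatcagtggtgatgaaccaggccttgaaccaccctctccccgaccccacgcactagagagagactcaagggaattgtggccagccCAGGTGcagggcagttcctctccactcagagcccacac
Cd3d: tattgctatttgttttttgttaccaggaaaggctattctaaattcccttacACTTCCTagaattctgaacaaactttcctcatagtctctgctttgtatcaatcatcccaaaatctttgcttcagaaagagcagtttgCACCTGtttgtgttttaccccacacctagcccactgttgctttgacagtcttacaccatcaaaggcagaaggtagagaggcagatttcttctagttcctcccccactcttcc
Cd3e: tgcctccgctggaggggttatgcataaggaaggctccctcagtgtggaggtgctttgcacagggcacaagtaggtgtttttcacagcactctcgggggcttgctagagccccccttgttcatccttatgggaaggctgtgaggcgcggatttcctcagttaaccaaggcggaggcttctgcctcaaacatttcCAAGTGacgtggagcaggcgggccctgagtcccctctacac
AGGAAGT, letters that ETS family factors bind, was chosen after the promoters had been read, and occurred once each in *Cd79a*, *Cd3d* and *Cd3e* and in 7.69% of 32851 promoters, each searched over all 250 bases. In *Cd79a* the match lay inside the locus and in *Cd3e* across its start, and neither is in the bases shown. It had no match in *Cd8a* or *Cd3g*. CANNTG, the core that E proteins bind, occurred in all 5 members with an entry and in 66.2% of all promoters. The octamer ATGCAAAT, which POU factors bind, had no match in any of the 5 and was present in 1.60% of all promoters. The EBF core CCCNNGGG likewise had none, against 11.8% of all promoters, as did the RUNX core TGTGGT, against 14.1%, and the TATA box TATAAA, against 12.4%. These matches describe letters only.

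All members were scarce in whole liver. Each FPKM was divided by a median-of-ratios factor of its library, and the result is called scaled FPKM. Over the 9 mice, mean scaled FPKM, which is per gene length and can be ranked between genes, was 0.991 for *Cd79b*, 0.692 for *Cd3e*, 0.350 for *Cd3g*, 0.336 for *Cd79a*, 0.281 for *Ms4a1*, 0.219 for *Cd4*, 0.213 for *Cd3d* and *Cd8a*, and 0.173 for *Cd8b1*. The first of these ranged from 0.346 to 1.45 between mice and the second from 0.279 to 1.02, so that they overlapped, as did all neighbours in the order. For scale, mean scaled FPKM of albumin (*Alb*) was 28326 in the control group, and that of *Ptprc*, which encodes the leukocyte antigen CD45, was 4.47. Depth, estimated from the steps between low values, was 26.9 to 40.5 M fragments per library. For *Cd8b1*, the scarcest member and a gene with 1 transcript, this amounts to at most 4.01, 0.998 and 2.51 fragments in the control mice and to 22.4, 17.7 and 26.1 in the TAA mice. For *Cd79a*, the other member with 1 transcript, the corresponding figures were 2.48, 16.4 and 10.9 in the control mice and 52.2, 20.4 and 45.2 in the TAA mice. Levels of the scarce members therefore rested on few fragments in the control group.

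Some libraries stood apart. Recovery mouse 1 was the lowest of its group in 9 of the 9 members, control mouse 1 in 7 and TAA mouse 2 in 5, including all 3 B cell members in each case. The same mice were the lowest of their groups in the summed level of 4 haemoglobin genes (*Hba-a1*, *Hba-a2*, *Hbb-bs* and *Hbb-bt*), RNA that comes with red blood cells. Summed scaled FPKM of haemoglobin was 428, 735 and 725 in control mice 1, 2 and 3. It was 626, 257 and 634 in the TAA mice and 355, 596 and 730 in the recovery mice. Control mouse 1 also had a scaled FPKM of 22.2 for *Gpnmb*, a gene of lipid-laden and injury-associated macrophages, against 0.188 and 0.102 in the other control mice. Of other macrophage markers, its *Clec4f* was 13.8 (against 32.3 and 36.2) and its *Cd5l* 13.6 (against 50.5 and 51.2). Its endothelial marker *Kdr* was 12.5, against 21.2 and 22.6. The macrophage markers *Adgre1*, *Cd68*, *Lyz2* and *Trem2* were instead highest in this control mouse, and endothelial *Vwf* lay between the others. The library of control mouse 1 was also the shallowest, at an estimated 26.9 M fragments. The part of these differences in the results was not tested.

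The count of members that rose in the TAA group was near the share over all genes and depended on the scaling. *Cd8a* and *Cd8b1* rose in the TAA group relative to the control group, by 1.03 ± 0.25 and 1.24 ± 0.29 (log2 fold change ± SE, 3 mice a group), and the other 7 members did not pass the criteria of an FDR below 0.05 and a fold change of at least 2. All 9 fold changes were above 0, with a median of 0.59 against 0.02 over all tested genes, whereas after quantile normalization, another way to scale the libraries, 7 of 9 were below 0 and none passed. Without control mouse 1 the median was 0.27, with 8 of 9 above 0, and without control mouse 2 it was 0.96. Without the 3 libraries lowest in haemoglobin, 1 from each group, it was 0.32. That alternative was chosen after seeing the data and leaves 2 mice a group. By the same criteria 17.0% of the 14094 tested genes rose, so that 2 of 9 lies near the share over all genes. In whole liver RNA, the kind of cell that carried these transcripts, the number of such cells and their RNA per cell cannot be told apart.

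*Cd8a* encodes the CD8 alpha chain, which also forms homodimers on some other lymphocytes and on a subset of dendritic cells. Scaled FPKM of *Cd8a* was 0.0714, 0.155 and 0.117 in the control mice, 0.395, 0.353 and 0.258 in the TAA mice and 0.0714, 0.137 and 0.361 in the recovery mice. Every TAA mouse lay above every control mouse, and recovery mouse 3 lay among the TAA mice. The ratio of group means was 2.93 for TAA to control, larger than the fitted fold, since the value of 0.1 added before taking logarithms draws low genes towards 0. The fitted log2 fold change of *Cd8a* had a 95% interval of 0.44 to 1.62 (limma, adjusted p = 0.0103). Its fold fell just under 2 without control mouse 1 (0.88 on the log2 scale, adjusted p = 0.0274), TAA mouse 1 (0.93, adjusted p = 0.0382) or TAA mouse 2 (0.99, adjusted p = 0.0315).

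*Cd8b1* encodes the CD8 beta chain, which is more restricted to conventional cytotoxic T cells. Scaled FPKM of *Cd8b1* was 0.122, 0.0222 and 0.0588 in the control mice, 0.292, 0.233 and 0.333 in the TAA mice and 0.0216, 0.129 and 0.345 in the recovery mice. The control and TAA groups did not overlap, and the recovery mice spanned the range of both. The ratio of group means was 4.22 for TAA to control, and the log2 fold change had a 95% interval of 0.57 to 1.90 (limma, adjusted p = 0.00805). This call was kept when any of the 6 libraries was left out, and without the 3 libraries lowest in haemoglobin (1.56, adjusted p = 0.00897). *Cd8a* without these libraries was at 0.84 with an adjusted p of 0.0603. The call of *Cd8b1* was lost after quantile normalization (0.26, adjusted p = 0.456). It was also lost when 1 rather than 0.1 was added before taking logarithms, and when tested against a fold of 2.

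*Cd4* encodes the coreceptor of helper T cells and is also transcribed by some macrophages and dendritic cells. Scaled FPKM of *Cd4* was 0.0436, 0.308 and 0.140 in the control mice, 0.214, 0.247 and 0.339 in the TAA mice and 0.166, 0.212 and 0.299 in the recovery mice. The 3 groups overlapped, with control mouse 2 among the TAA mice. In the TAA group it was at 0.59 on the log2 scale (95% interval -0.32 to 1.49, adjusted p = 0.237), an interval that holds both no change and the fold changes of *Cd8a* and *Cd8b1*. Without control mouse 1 it was at 0.21. The ratio of *Cd4* to *Cd8a* was 0.611, 1.99 and 1.20 in the control mice, 0.541, 0.699 and 1.31 in the TAA mice and 2.33, 1.55 and 0.829 in the recovery mice. These ratios overlapped between all groups.

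**Figure D1:**
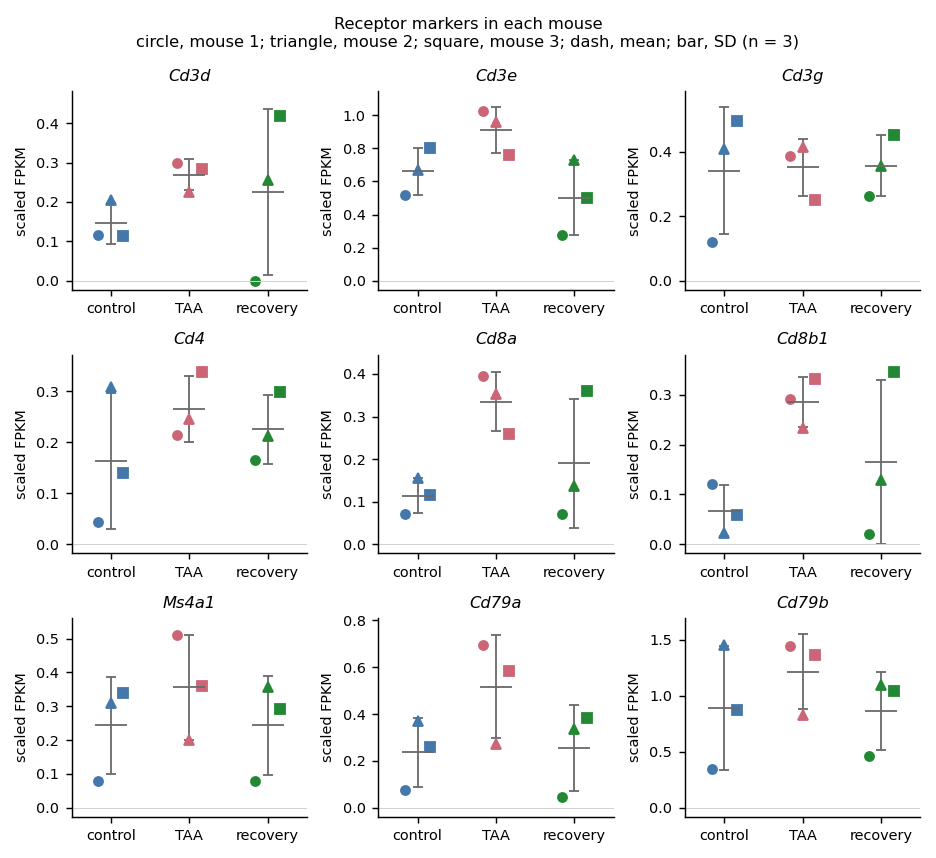
Scaled FPKM (vertical axis) of the 9 receptor markers in every mouse of the control, TAA and recovery groups; dashes are means and bars SD over 3 mice. For *Cd3d*, *Cd8a* and *Cd8b1* all TAA mice lie above all control mice, and recovery mouse 1 (circle) is the lowest of its group in every panel.

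The CD3 chains were less uniform. *Cd3e*, the epsilon chain shared by all T cell receptor complexes, had scaled FPKM of 0.518, 0.667 and 0.803 in the control mice, 1.02, 0.957 and 0.758 in the TAA mice and 0.279, 0.729 and 0.497 in the recovery mice. TAA mouse 3 lay within the control range, while every recovery mouse lay below every TAA mouse. *Cd3d*, the delta chain, had scaled FPKM of 0.117, 0.206 and 0.114 in the control mice and 0.299, 0.225 and 0.283 in the TAA mice, and was listed at 0 in recovery mouse 1 and at 0.256 and 0.418 in the others. Its control and TAA groups did not overlap, whereas the recovery mice lay on both sides of them. *Cd3g*, the gamma chain, had scaled FPKM of 0.119, 0.407 and 0.497 in the control mice, 0.387, 0.416 and 0.251 in the TAA mice and 0.262, 0.357 and 0.452 in the recovery mice. The groups of *Cd3g* overlapped throughout, although its start lies beside that of *Cd3d*.

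In the TAA group relative to the control group, the log2 fold change was 0.60 for *Cd3d* (95% interval 0.04 to 1.17, adjusted p = 0.0673), 0.42 for *Cd3e* (-0.07 to 0.90, adjusted p = 0.126) and 0.14 for *Cd3g* (-0.78 to 1.06, adjusted p = 0.793). None of the 3 passed the criteria. The sign of *Cd3g* was set by control mouse 1, without which it was -0.31. Among the 9 members, TAA lay above control without overlap for 3 (*Cd3d*, *Cd8a* and *Cd8b1*), as it did for 32.6% of all tested genes. *Cd247*, the zeta chain and the fourth signalling subunit of the complex, was at 0.399 ± 0.175 in control mice and 0.412 ± 0.0933 in TAA mice (mean scaled FPKM ± SD, n = 3), with a log2 fold change of 0.09 (adjusted p = 0.826). The genes of the antigen-binding receptor chains were not analysed here.

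In each group, the mouse that was lowest in 1 B cell member was lowest in all 3. *Cd79a*, which encodes the alpha chain of the B cell receptor heterodimer, had scaled FPKM of 0.0766, 0.372 and 0.260 in the control mice, 0.693, 0.273 and 0.586 in the TAA mice and 0.0439, 0.336 and 0.384 in the recovery mice. TAA mice 1 and 3 were above all other mice, and TAA mouse 2 lay between the control mice. *Cd79b*, the beta chain, had scaled FPKM of 0.346, 1.45 and 0.873 in the control mice, 1.45, 0.832 and 1.37 in the TAA mice and 0.465, 1.09 and 1.04 in the recovery mice. Control mouse 2 matched the highest TAA mouse, and mouse 1 of the control and of the recovery group were the lowest of all. *Ms4a1* had scaled FPKM of 0.0788, 0.310 and 0.340 in the control mice, 0.509, 0.199 and 0.360 in the TAA mice and 0.0798, 0.358 and 0.291 in the recovery mice. The 3 groups overlapped for *Ms4a1* and for *Cd79b*.

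The log2 fold change in the TAA group relative to the control group was 0.92 for *Cd79a* (95% interval -0.09 to 1.93, adjusted p = 0.109), 0.55 for *Cd79b* (-0.48 to 1.59, adjusted p = 0.325) and 0.46 for *Ms4a1* (-0.52 to 1.44, adjusted p = 0.386). Each interval holds both 0 and a fold change of 2, and none of the 3 passed. With the log2 haemoglobin level as a covariate, chosen after seeing the data, *Cd79a* passed at 1.30 (adjusted p = 0.00812). Without the 3 libraries lowest in haemoglobin, none of the B cell members passed, and *Cd79a* was at 0.84 (adjusted p = 0.0383), *Cd79b* at 0.29 and *Ms4a1* at 0.32. Without control mouse 1 alone they were at 0.51, 0.064 and 0.042, respectively, with adjusted p of 0.277 to 0.927. Over the 9 libraries, Pearson's r on the log2 scale was 0.929 to 0.942 for the 3 pairs of B cell members. For the 15 pairs of T cell members it was 0.058 (*Cd3g* with *Cd8b1*) to 0.812 (*Cd8a* with *Cd8b1*), with a median of 0.552. These correlations describe 9 libraries that share group differences and depth.

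**Figure D2:**
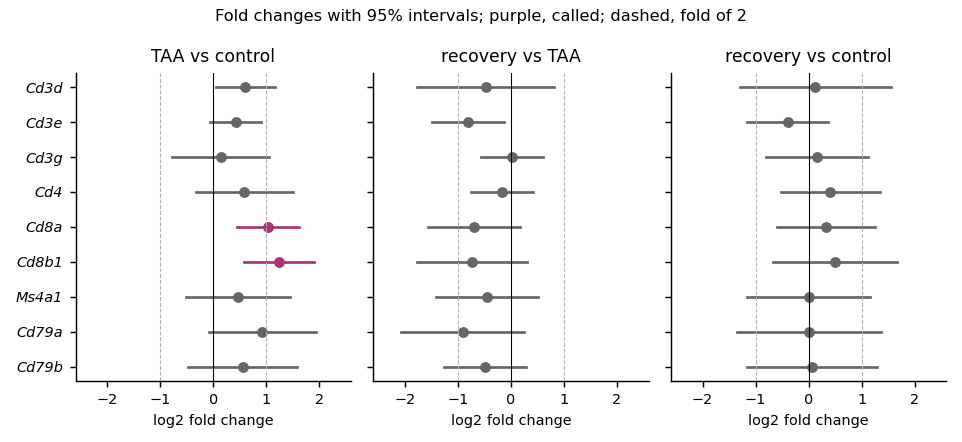
Log2 fold changes (horizontal axis, points) with 95% intervals (lines) of the 9 members in the 3 comparisons; purple marks members past an FDR of 0.05 and a fold change of 2, and dashed lines mark that fold. *Cd8a* and *Cd8b1* pass in the TAA group relative to the control group, and in the comparison of recovery with control all intervals hold 0.

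In the recovery group, no member passed relative to the TAA group, and 8 of 9 log2 fold changes were below 0, with a median of -0.49 against -0.01 over all tested genes (after quantile normalization 7 of 9 were above 0). Without recovery mouse 1, the lowest of its group in all 9 members, the median was -0.14, and without recovery mouse 3 it was -0.84. Of all tested genes 14.3% fell by the criteria. At an unadjusted p under 0.05, 1 member (*Cd3e*) was lower. This comparison shares the TAA libraries with the previous one, so that low fold changes here and high ones there are not separate evidence.

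*Cd3e* came closest, at -0.81 (95% interval -1.498 to -0.13, limma, adjusted p = 0.0505), and was the only member whose recovery mice all lay below the TAA mice, as was so for 31.0% of all tested genes. Without recovery mouse 2 it passed at -1.08 (adjusted p = 0.0185), and without recovery mouse 1 it was at -0.52 (adjusted p = 0.112). The log2 fold change was -0.70 for *Cd8a* (95% interval -1.57 to 0.17, adjusted p = 0.156) and -0.73 for *Cd8b1* (-1.76 to 0.30, adjusted p = 0.209). Both values moved in opposite directions with recovery mice 1 and 3. Without recovery mouse 3, whose levels were like those of the TAA mice, *Cd8a* passed at -1.10 (adjusted p = 0.0206) and *Cd8b1* at -1.20 (adjusted p = 0.0283). Without recovery mouse 1 they were at -0.38 (adjusted p = 0.401) and -0.27 (adjusted p = 0.556). The other T cell members were at -0.48 (*Cd3d*), -0.17 (*Cd4*) and 0.02 (*Cd3g*), with adjusted p of 0.503 to 0.964.

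Among the B cell members, the log2 fold change of recovery relative to TAA was -0.91 for *Cd79a* (95% interval -2.08 to 0.25, adjusted p = 0.168), -0.49 for *Cd79b* (-1.26 to 0.29, adjusted p = 0.260) and -0.46 for *Ms4a1* (-1.42 to 0.50, adjusted p = 0.387). None passed. Without recovery mouse 1 they were at -0.35, -0.14 and -0.047, respectively, with adjusted p of 0.444 to 0.920. Without the 3 libraries lowest in haemoglobin *Cd79a* was at -0.68 (adjusted p = 0.0594), whereas with haemoglobin as a covariate it passed at -1.13 (adjusted p = 0.0180).

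Relative to the control group, no member passed in the recovery group, nor did any at an unadjusted p under 0.05, and the count was 0 under every alternative tried. Of all tested genes 0.993% were called, and 30.2% had no overlap between the groups in either direction, against 0 members. Fold changes ran from -0.40 (*Cd3e*, 95% interval -1.15 to 0.36) to 0.51 (*Cd8b1*, -0.66 to 1.68) on the log2 scale. For the B cell members they were 0.00 (*Ms4a1*, -1.16 to 1.16), 0.01 (*Cd79a*, -1.35 to 1.37) and 0.07 (*Cd79b*, -1.16 to 1.29). Without control mouse 1 the B cell members were at -0.42 to -0.40, and without recovery mouse 1 at 0.41 to 0.57. The intervals of the B cell members hold a change of 2-fold in either direction, and such a change was not detectable with 3 mice a group.

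The calls depended on how libraries were made comparable. Median-of-ratios factors were 0.827 to 0.878 for control, 1.29 to 1.38 for TAA and 0.893 to 0.907 for recovery mice, and in FPKM as deposited the median log2 fold change of all tested genes in the TAA group was 0.63. On that scale 5 members passed as higher in the TAA group (*Cd3d* at 1.04, *Cd4* at 1.01, *Cd8a* at 1.46, *Cd8b1* at 1.63 and *Cd79a* at 1.40), where 31.1% of all genes did. In the recovery group 3 passed as lower than in the TAA group (*Cd3e* at -1.31, *Cd8a* at -1.11 and *Cd79a* at -1.35), where 26.5% of all genes did. Relative to the shift of 0.63, 8 of 9 members were still higher in the TAA group. Quantile normalization gives every library the same distribution of values. Under it no member passed in either comparison, the median member was at -0.36 in the TAA group, and *Cd8a* (0.048) and *Cd8b1* (0.26) alone were above 0.

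**Figure D3:**
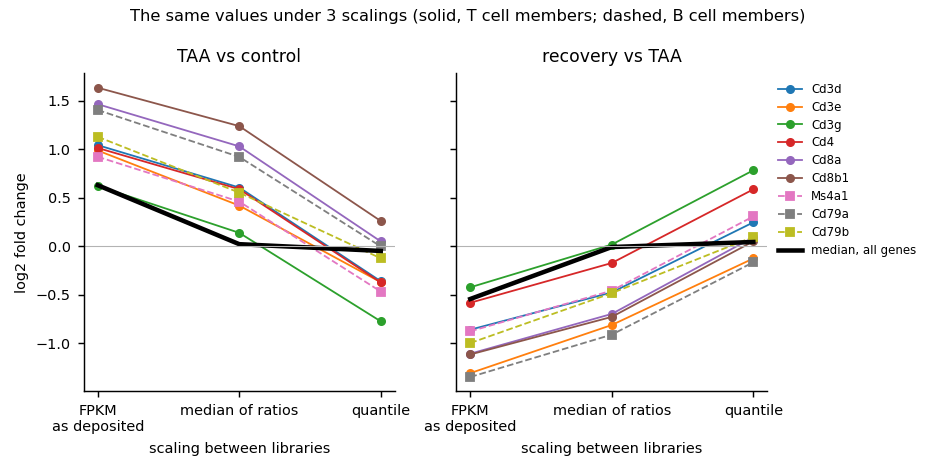
Log2 fold changes (vertical axis) of the 9 members for TAA relative to control and for recovery relative to TAA, under 3 scalings between libraries; the thick black line is the median of all tested genes. The sign of most members changes with the scaling, and *Cd8b1* is the highest in the TAA group under all 3.

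The T cell members summed to a scaled FPKM of 0.991, 1.76 and 1.73 in the control mice, 2.61, 2.43 and 2.22 in the TAA mice and 0.800, 1.82 and 2.37 in the recovery mice. The TAA mice lay above the control mice, and recovery mouse 3 lay among the TAA mice. The B cell members summed to 0.501, 2.13 and 1.47 in the control mice, 2.65, 1.30 and 2.31 in the TAA mice and 0.589, 1.79 and 1.72 in the recovery mice. These sums overlapped between all groups, with the lowest mouse of each group the one that was lowest in haemoglobin.

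**Figure D4:**
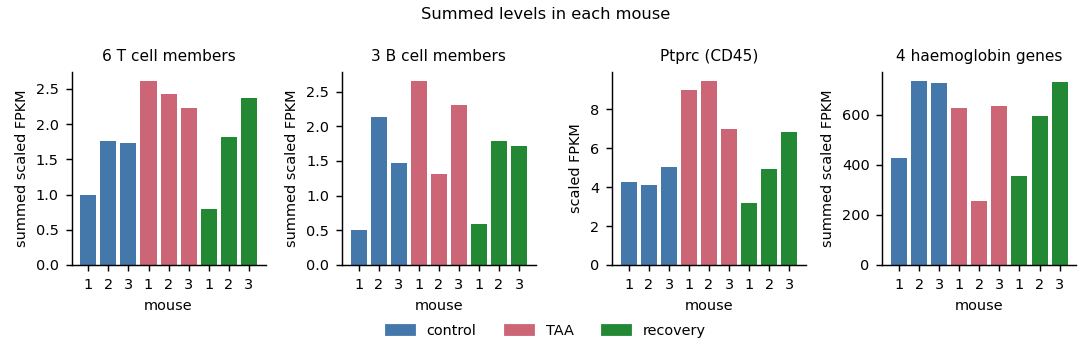
Summed scaled FPKM (bars, from 0) of the 6 T cell members, the 3 B cell members and 4 haemoglobin genes, and scaled FPKM of *Ptprc*, in each mouse. Control mouse 1, TAA mouse 2 and recovery mouse 1 are the lowest of their groups in the B cell and haemoglobin panels.

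*Ptprc*, which every leukocyte carries, was at 4.26, 4.13 and 5.03 in the control mice, 9.01, 9.45 and 6.98 in the TAA mice and 3.16, 4.92 and 6.81 in the recovery mice (scaled FPKM). Its fitted value for TAA relative to control was 0.90 on the log2 scale (adjusted p = 0.00156), short of a fold of 2. As a share of *Ptprc*, the T cell sum of control, TAA and recovery mice was 33.5% ± 9.75, 28.8% ± 3.06 and 32.4% ± 6.21 (SD, n = 3). The B cell sum was 30.9% ± 19.95, 25.4% ± 10.3 and 26.7% ± 8.91 of *Ptprc*, respectively. Relative to this general leukocyte gene, the mice of all groups overlapped for both sums. The ratio of the B cell sum to the T cell sum was 0.855 ± 0.351, 0.864 ± 0.284 and 0.814 ± 0.145, and that of *Cd79a* to *Cd3e* was 0.343 ± 0.205, 0.578 ± 0.258 and 0.464 ± 0.308, in the same order. These ratios, too, overlapped.

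Other genes of the B cell surface shared the members' direction in the TAA group, and 10 of 10 tested genes of that list, the 3 members included, had a log2 fold change above 0 (median 0.60), against 3 of 10 after quantile normalization (median -0.048, none passed). Of these, 2 passed: *Cd22*, an inhibitory lectin of B cells, at 1.12 (adjusted p = 0.0315), and *Cr2*, a complement receptor of B cells and follicular dendritic cells, at 1.08 (adjusted p = 0.0454). Scaled FPKM of *Cr2* was 0.0851, 0.133 and 0.0944 in the control mice, 0.236, 0.690 and 0.201 in the TAA mice and 0.0286, 0.0796 and 0.0956 in the recovery mice, so that TAA mouse 2, lowest in the 3 B cell members, was the highest for *Cr2*. *Cr2* also fell in the recovery group relative to the TAA group (-1.38, limma, adjusted p = 0.0224). After quantile normalization no gene of this list passed in that comparison. The remaining tested genes were at 0.50 (*Cd72*), 0.52 (*Cd37*), 0.89 (*Fcrla*), 0.65 (*Fcrl1*) and 0.55 (*Fcer2a*), with adjusted p of 0.0678 to 0.302. Of the immunoglobulin constant regions only *Iglc2* was analysed, at 0.60 (adjusted p = 0.0575).

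Of 9 tested genes of B cell receptor signalling, 3 rose in the TAA group (*Blnk*, *Dapp1* and *Plcg2*), none fell, and the median was 0.79. *Plcg2*, a phospholipase used by B cells and other leukocytes, was at 0.633 ± 0.0291 in control mice and 1.62 ± 0.101 in TAA mice (mean scaled FPKM ± SD, n = 3), a log2 fold change of 1.23 (adjusted p = 0.000334). *Syk* was at 0.85 (adjusted p = 0.0012) and *Lyn* at 0.01 (adjusted p = 0.966), and these kinases are used by myeloid cells as well. Of 6 B cell transcription factors, *Spib* (1.25, adjusted p = 0.00652) and *Bcl11a* rose, while *Pax5*, which defines the B lineage, was at -0.01 (adjusted p = 0.978), *Bach2* at -0.52 and *Pou2af1* at 0.21. *Spib* and *Bcl11a* are also known in plasmacytoid dendritic cells. Of 7 tested plasma cell genes, *Jchain*, the joining chain of secreted antibody, rose by 1.33 (adjusted p = 0.0071), as did *Prdm1*. The most abundant genes of that list, *Sdc1* and *Txndc5*, had means of 128 and 42.8 scaled FPKM in the control group, far above the B cell members, and *Sdc1* was at -0.90 in the TAA group and *Mzb1* at 0.29.

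The T cell lists were mixed in direction. Of 9 tested genes of T cell receptor signalling, none rose and 2 fell, *Zap70* (-1.38, adjusted p = 0.000373) and *Sla2*, with a list median of 0.27. *Zap70*, the kinase that the CD3 chains recruit, was at 4.80 ± 0.608 scaled FPKM in the control group, several times the level of any CD3 chain, and at 1.79 ± 0.332 in the TAA group. The kinase *Lck*, which CD4 and CD8 bring to the receptor, was at 0.86 (adjusted p = 0.159), the adaptor *Lcp2* at 0.54 (adjusted p = 0.0633) and *Themis* at -0.59 (adjusted p = 0.261). None of 8 tested genes of costimulation and adhesion passed, with 8 of 8 above 0 and a median of 0.49 (*Cd2* at 0.49, *Cd28* at 0.57, *Icos* at 0.26 and *Il7r* at 0.18). Of 7 tested T cell transcription factors, *Runx3*, which directs the CD8 lineage and is used by other leukocytes, rose and *Tox* fell by 2.40 (adjusted p = 3.2e-05). *Tcf7* was at 0.99 (adjusted p = 0.00355), just under a fold of 2, while *Ikzf3* was at 0.32 (adjusted p = 0.321) and *Zbtb7b* at -0.47. *Zbtb7b* had a control mean of 23.0 scaled FPKM, against 0.662 for *Cd3e*.

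Among 8 tested genes of cytotoxic granules, *Ccl5*, a chemokine stored by effector T and NK cells, and *Ctsw*, a protease of these cells, rose in the TAA group by 1.60 (adjusted p = 0.0011) and 1.68 (adjusted p = 0.00281). *Nkg7* was at 0.80 (adjusted p = 0.0158) and *Gzma* at 0.45 (adjusted p = 0.313), and the list median was 0.68. Scaled FPKM of *Ccl5* was 0.548, 0.629 and 0.523 in the control mice, 2.69, 1.40 and 1.85 in the TAA mice and 0.450, 1.47 and 2.201 in the recovery mice. The order of the recovery mice was the same for *Cd3d*, *Cd3g*, *Cd4*, *Cd8a*, *Cd8b1* and *Ptprc*, but not for *Cd3e*. In the NK cell list, whose genes some CD8 T cells also carry, *Klrd1* (1.86, adjusted p = 0.0034) and *Cd244a* rose among 8 tested, whereas *Il2rb* was at 0.24, *Klrk1* at 0.10 and *Klrc1* at -0.24. Of 5 tested genes of tissue-resident T cells, *Itgae*, an integrin also found on dendritic cells, rose, and *Cd69* (0.76), *Cxcr3* (0.30), *Itga1* (0.15) and *Cxcr6* (-0.43) did not pass.

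The lymphocyte lists shifted with the scaling as the members did. After quantile normalization their medians in the TAA group were below 0, between -0.70 (NK cells) and -0.048 (B cell surface), except for the coreceptors (0.048) and B cell receptor signalling (0.17). Of the 15 lymphocyte list genes that rose under the main scaling, 4 still passed as higher, *Blnk* (1.22), *Jchain* (1.23), *Ccl5* (1.02) and *Klrd1* (1.01), with adjusted p of 0.0146 to 0.0332. The other 11 did not pass, with *Cd22* at 0.21, *Cr2* at 0.11, *Plcg2* at 0.63, *Dapp1* at 0.83, *Spib* at 0.27, *Bcl11a* at 0.088, *Prdm1* at 0.17, *Runx3* at 0.61, *Ctsw* at 0.73, *Cd244a* at 0.74 and *Itgae* at 0.28. Under the same scaling 10 genes of these lists passed as lower. Of them *Zap70* (-1.69), *Sla2* (-2.20) and *Tox* (-2.99) also passed as lower under the main scaling, and the other 7 (*Themis*, *Bach2*, *Gzmb*, *Klrb1c*, *Klrc1*, *Klrc2* and *Cxcr6*) had log2 fold changes of -1.31 to -1.14 and had not passed there. The general leukocyte genes had a median of 0.89 under this scaling.

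In the recovery group relative to the TAA group, the cytotoxic and NK lists held calls in both directions under the main scaling. After quantile normalization the cytotoxic list had 2 genes higher and 0 lower, and the NK list 3 higher and 0 lower. With FPKM as deposited both had 0 higher, with 3 and 2 lower, respectively. The calls named next are those of the main scaling. *Gzmb*, which encodes granzyme B, rose, and *Gzmm*, *Klrd1* (-1.55, adjusted p = 0.00495) and *Cd244a* fell. Scaled FPKM of *Gzmb* was 0.143, 0.185 and 0.0248 in the TAA mice and 0.446, 0.347 and 0.424 in the recovery mice, without overlap. Among the remaining lymphocyte lists, *Cr2*, *Blnk* and *Dapp1* fell and *Tox* rose. After quantile normalization no gene of the B cell surface list, *Cr2* included, passed. Under it the list of B cell receptor signalling had 2 genes lower and that of T cell transcription factors 1 higher. No gene of any lymphocyte list passed in the recovery group relative to the control group.

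The other cells of the liver set the scale for these changes in the TAA group. The tested genes had a median of 3.86 for 6 cholangiocyte markers, of which 6 rose (*Spp1* by 4.31, *Epcam* by 4.21, *Cldn4* by 5.93 and *Sox9* by 1.84), and of 1.48 for 7 stellate cell markers, of which 5 rose (*Col1a1* by 5.91 and *Lrat* by 1.48, with *Dcn* at 0.65 and *Reln* at 0.80). All 6 tested neutrophil markers rose, with a median of 2.11 (*S100a8* by 2.999, *S100a9* by 2.53, *Csf3r* by 1.94 and *Retnlg* by 1.29). Of 9 genes listed for dendritic cells 5 rose, with a median of 1.14 (*Ly6d* by 5.34 and *Itgax* by 2.64, with *Bst2* at 0.18 and *Zbtb46* at -0.44). Mean scaled FPKM in the TAA group was 54.3 for *Ly6d* and 2.72 for *Itgax*, and which cells carried *Ly6d* was not tested. Of 11 macrophage markers 3 rose, with a median of 0.54 (*Lyz2* by 1.42, with *Cd5l* at 0.30, *Clec4f* at -0.21 and *Csf1r* at 0.54). Of 10 general leukocyte genes 4 rose, with a median of 0.85 (*Laptm5* by 1.18 and *Cd53* by 1.12, with *Lcp1* at -0.27). The median of the 9 receptor markers was 0.59, and after quantile normalization it was -0.36, against 0.80 for the macrophage list. Of 7 hepatocyte markers 4 fell, with a median of -1.37 (*Cyp2e1* at -3.65, *Apoa1* at -1.55, *Alb* at -0.48 and *Ttr* at -0.50). After quantile normalization the hepatocyte median was -0.15, with 1 gene higher and 1 lower. With FPKM as deposited it was -0.73, with 1 lower. The medians of the cholangiocyte, stellate cell and neutrophil lists after quantile normalization were 3.55, 1.64 and 1.33. None of 7 endothelial markers passed (median -0.03, *Clec4g* at -0.23, *Kdr* at -0.65, *Stab2* at -0.23 and *Cdh5* at 0.26). Of 6 red blood cell genes *Alas2* fell, and the haemoglobin genes were at -0.47 (*Hbb-bs*), -0.26 (*Hba-a1*), -0.23 (*Hba-a2*) and -0.43 (*Hbb-bt*). In the recovery group relative to the control group, *Epcam*, a marker of bile duct cells, was the 1 gene of any list that passed, at 1.65 (adjusted p = 0.031).

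**Figure D5:**
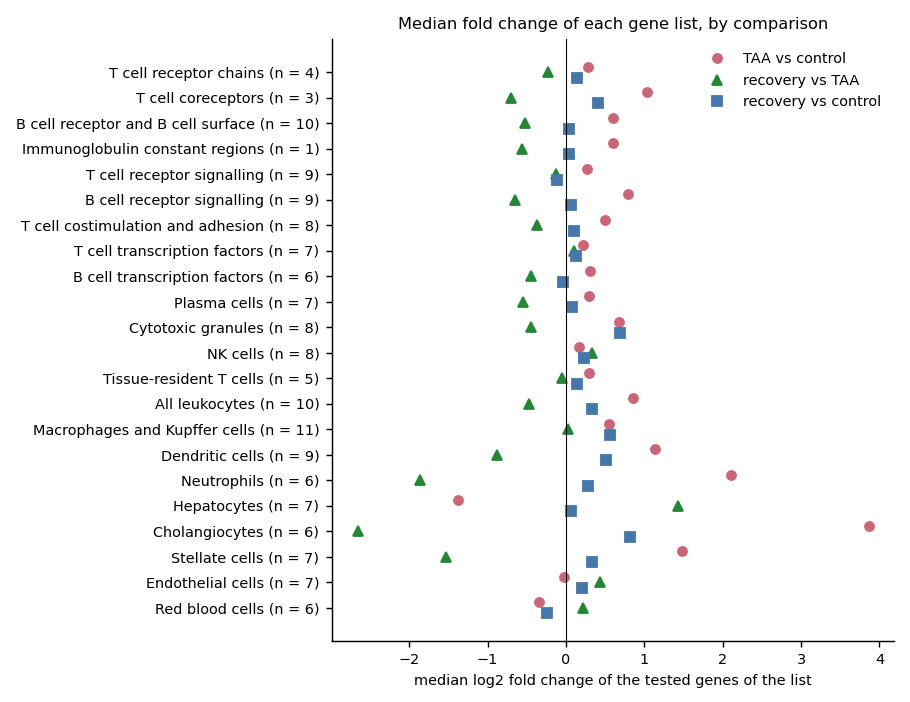
Median log2 fold change (horizontal axis) of the tested genes of 22 gene lists in the 3 comparisons, with the number of genes tested in parentheses. Lymphocyte lists lie between -0.70 and 1.03 (in the TAA group most are below 0 after quantile normalization), while cholangiocyte markers reach 3.86 in the TAA group.

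The genes whose pattern over the 9 libraries was most like that of the T cell members, among 11100 genes whose mean FPKM reached 1, were *Ifitm1* (Pearson's r = 0.956), *Elmsan1*, *Champ1*, *Mkrn1*, *Clec4a1*, *Klra2*, *Pirb*, *Itgb2*, *Tceal8* and *Tmem176b* (r = 0.913). *Itgb2* is the beta-2 integrin of leukocytes, and *Ptprc* ranked 26 at r = 0.893. For the B cell members they were *Srgn* (r = 0.931), *Sema4b*, *Adm*, *Bmp5*, *Foxf1*, *Ccl6*, *Rufy2*, *Efemp1*, *Zfp111* and *Ms4a4d* (r = 0.877), and *Ptprc* ranked 568 at r = 0.621. The haemoglobin genes had r of 0.567 to 0.680 with the B cell members and 0.171 to 0.412 with the T cell members. These values describe 9 libraries and carry no test.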

How the data were processed

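Liver mRNA of 9 male C57BL/6 mice was analysed, 3 in each of the control, TAA and recovery groups, which the labels give. The authors sequenced 150 bp paired-end reads, aligned them to mm10 by HISAT2 (version 2.2.1 in the submitters' processing notes), counted them on genes with featureCounts (1.5.0-p3) and deposited FPKM values, with no further scaling between libraries. The small RNA libraries were not used here.

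In genes with 1 transcript, low FPKM multiplied by merged exon length form steps, which gave an estimate of depth. Between 44.8% and 53.9% of low values per library lay within 0.03 of a whole number of fragments, so counts were not recovered and no count model was used. Fragment numbers are upper estimates.

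A median-of-ratios factor divided the FPKM of each library. Groups were then tested on log2(scaled FPKM + 0.1) with lmFit and a trended eBayes (limma 3.58.1, R 4.3.3), using the 6 libraries of each comparison and the 14094 genes whose FPKM averaged 0.1 or more. Benjamini-Hochberg adjustment ran over all of these, with an FDR below 0.05 and a fold change of at least 2 as criteria. Fold changes are on the scale of log2(scaled FPKM + 0.1). The labels do not say that replicates came from separate litters or batches, and p-values measure the spread between these mice. No set test was made. The steps were tested on simulated data. Python 3.11.15 with pandas 2.3.3, numpy 2.4.6 and scipy 1.17.1 was used for tables and figures.

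The 9 members and the 22 gene lists were chosen with earlier results of these data known. Named were the members, all tested genes of the lists of T cell receptor chains and of the B cell surface, the 4 genes with the highest mean in every other list, list genes that passed in the recovery group relative to the control group, and the 10 genes most like the T cell and the B cell members. Other list genes that passed, with *Gzmb*, *Gzmm* and *Gpnmb*, were named after their values had been seen. Of the genes first listed, 2 are not reported here and were left out of the list counts and medians. The pseudocount, the filter, the scaling, the libraries in a fit, the trend, a replicate block and the test were varied, and each library was left out in turn.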

Additional observations from a re-analysis of the deposited data

How the results depend on the processing

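Fold changes are on the log2 scale, and the cause of a change was not tested unless the setting itself shows it. With FPKM as deposited, 5 members passed in TAA against control (*Cd3d* 1.04, *Cd4* 1.01 and *Cd79a* 1.40 added) and 3 in recovery against TAA (*Cd3e* -1.31, *Cd8a* -1.11 and *Cd79a* -1.35), where *Cd3g* was at -0.43, while *Ms4a1* was at 0.042 in recovery against control. After quantile normalization 0 members passed in TAA against control, with *Cd8a* at 0.048, *Cd8b1* at 0.26, *Cd3d* at -0.36, *Cd3e* at -0.37, *Cd3g* at -0.78, *Cd4* at -0.38, *Ms4a1* at -0.47, *Cd79a* at -0.0038 and *Cd79b* at -0.13. In recovery against TAA it gave 0.24 (*Cd3d*), 0.58 (*Cd4*), 0.091 (*Cd8a*), 0.049 (*Cd8b1*), 0.31 (*Ms4a1*) and 0.095 (*Cd79b*), and in recovery against control -0.12 (*Cd3d*), -0.17 (*Cd79a*) and -0.031 (*Cd79b*). A pseudocount of 1, which compresses low genes, left 0 members in TAA against control (*Cd8a* 0.26, *Cd8b1* 0.27), and 1780, 1460 and 80 of all genes in TAA against control, recovery against TAA and recovery against control, where the reported values are 3520, 3017 and 140. A pseudocount of 0.01 gave -0.52 (*Cd3d*), 0.00022 (*Ms4a1*) and -0.093 (*Cd79a*) in recovery against control. A mean FPKM of at least 1 kept 1 member, *Cd79b*, in the test and left 0 members passing, with 2204 and 1895 of all genes in the first 2 comparisons. Testing against a fold of 2 (treat) left 0 members, *Cd8a* at 1.03 and *Cd8b1* at 1.24 included, and 1441, 1084 and 0 of all genes. In recovery against control, all genes called were 48 without a filter, 235 with all 9 libraries in 1 fit and 85 without the trend.

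The labels share replicate numbers. Same-numbered mice had deviations correlated by -0.070 to 0.125, with 1 of 9 pairs over 0.1. Different-numbered mice had correlations of -0.113 (recovery mouse 1 with control mouse 2) to 0.133 (recovery mouse 3 with control mouse 2). Whether mice of the same number were handled together was not tested. With a replicate block, 2 members passed in TAA against control, 0 in the other comparisons, and all genes called in recovery against control dropped to 17.

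A setting chosen after seeing the data left out the 3 libraries lowest in haemoglobin, 1 from each group. In TAA against control 1 member then passed, *Cd8b1* at 1.56, while *Cd8a* at 0.84 and *Cd3g* at -0.41 did not. *Cd3d* was at 0.14 in recovery against TAA. In recovery against control *Cd3g* was at -0.13 and *Cd79b* at -0.073, and 0 of all genes were called. These fits held fewer mice, so a lost call need not reflect the haemoglobin level. With haemoglobin as a covariate, 3 members passed in TAA against control (*Cd79a* at 1.30) and 1 in recovery against TAA (*Cd79a* at -1.13), and *Ms4a1* was at 0.26 in recovery against control.

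Leaving out each library gave 1 to 2 members in TAA against control (1 without control mouse 1, TAA mouse 1 or TAA mouse 2), with *Cd8a* at 0.88 to 1.16 and *Cd3g* at -0.31 to 0.42. In recovery against TAA it gave 0 to 2 members (1 without recovery mouse 2 and 2 without recovery mouse 3), with *Cd3d* at -0.96 to 0.22, *Cd3e* at -1.08 to -0.52, *Cd3g* at -0.16 to 0.17, *Cd8a* at -1.10 to -0.38 and *Cd8b1* at -1.20 to -0.27. In recovery against control, all genes called ranged from 32 to 106, *Cd3d* from -0.36 to 0.83, *Cd3g* from -0.29 to 0.43, *Cd8a* from -0.068 to 0.64, *Ms4a1* from -0.42 to 0.41, *Cd79a* from -0.40 to 0.57 and *Cd79b* from -0.42 to 0.48. Of 1041 alternative counts over the gene lists, 152 differed from the reported count by more than 1.5 times, or at all where either was 0. A change of 1 gene can thus be among them. With a few fragments per library in the control group, the scarce members allow no finer statement.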
